A study of Mus musculus with 278 samples.

Results

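Levels of 10 genes of metal binding and redox defence were followed in single mouse keratinocytes: the metallothioneins Mt1 and Mt2, the peroxiredoxins Prdx1, Prdx2, Prdx4 and Prdx6, thioredoxin (Txn1), thioredoxin reductase (Txnrd1), haem oxygenase (Hmox1) and the quinone reductase Nqo1. They were chosen by name as rows of the table of transcript levels (TPM, levels corrected for gene length, with an equal sum over genes in each cell), and all 10 of them were among its 14145 genes. Keratinocytes, the main cells of the epidermis, were cultured from adult mouse back skin. WT cells were grown with K14ΔNβ-cateninER cells at 9 to 1. The transgenic cells express, from the keratin 14 promoter, a beta-catenin that escapes degradation, joined to the ligand-binding part of the oestrogen receptor, so that 4-hydroxy-tamoxifen (4OHT) activates it in the cells where that promoter is on. Treated wells received 200 nM 4OHT for 24 h and untreated wells DMSO, and the medium of every well held fetal calf serum, hydrocortisone, insulin, cholera toxin and epidermal growth factor. The question of the study was whether activated neighbours change WT cells. The study found transgenic cells by reads of the transgene and removed them from its analysis. The labels used here do not mark those cells, so that here the transgenic cells could not be told apart from WT cells and the sets may hold both. Library names fall into 2 series, AG (66 untreated and 64 treated cells) and GHA501A (71 untreated and 69 treated cells), 270 cells in all. The 4 sets of cells, and not the cells, were taken as the replicates. Nothing in the labels says that the sets came from separate animals, so that p-values measure only the spread between these sets, which may be technical.

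Metallothioneins are small cysteine-rich proteins that hold zinc and copper, and their transcription is switched on by metal through short metal response elements and by glucocorticoids. Peroxiredoxins reduce hydrogen peroxide and are recharged by thioredoxin, which thioredoxin reductase in turn keeps reduced at the expense of NADPH. Hmox1 degrades haem, Nqo1 reduces quinones, and both are classical targets of the antioxidant response, in which the transcription factor Nfe2l2 binds antioxidant response elements.

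The label calls all cells keratinocytes, but the series differed in their markers. In AG the median of Krt14, a keratin of basal keratinocytes, was 4864 TPM in untreated and 4997 TPM in treated cells, while Col1a1, a fibroblast collagen gene, had a median of 0 TPM in both sets. In GHA501A the medians of Krt14 were 2.25 and 10.1 TPM and those of Col1a1 were 1123 and 909 TPM. Of 11 keratinocyte markers in the table, 10 had a median over 1 TPM in each AG set, 1 in the untreated and 6 in the treated GHA501A set. Of 8 fibroblast markers, 7 had a median over 1 TPM in each GHA501A set and 2 in each AG set. Cells were therefore also split at 100 TPM into Krt14-high cells (Krt14 at or over it, Col1a1 under it) and Col1a1-high cells (the reverse). AG had 64 untreated and 59 treated Krt14-high cells and no Col1a1-high cell. GHA501A had 8 untreated and 10 treated Krt14-high cells, and 60 and 49 Col1a1-high cells. The median number of genes over 1 TPM per cell was between 6008 and 6392 in the 4 sets, but 11 untreated and 7 treated AG cells had fewer than 5000, against 1 and 2 GHA501A cells. In GHA501A the treated cells carry library numbers up to 95 and the untreated cells those from 98 on, and in AG the sets carry different name stems, so that 4OHT and anything else shared by a set cannot be told apart.

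Mt1 and Mt2 are neighbours on chromosome 8 of GRCm38, both on the plus strand. In GENCODE release M21, Mt2 spans chr8:94172664-94173568 and Mt1 spans chr8:94179082-94180327, with 5513 bases between them. The 250 bases before the start of each gene in RefSeq (GRCm38.p6; 8 of the 10 genes matched its promoter table, Hmox1 and Prdx6 did not) are shown because these 2 genes varied together most closely of all pairs. Capitals mark the metal response element core, searched as TGCACNC or TGCGCNC on both strands.
Mt2, chr8:94172368-94172617: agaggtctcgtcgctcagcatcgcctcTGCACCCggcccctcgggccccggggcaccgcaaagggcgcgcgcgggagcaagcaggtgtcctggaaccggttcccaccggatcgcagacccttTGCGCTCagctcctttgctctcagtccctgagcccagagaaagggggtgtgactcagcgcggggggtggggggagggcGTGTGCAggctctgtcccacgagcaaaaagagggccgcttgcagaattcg
Mt1, chr8:94178839-94179088: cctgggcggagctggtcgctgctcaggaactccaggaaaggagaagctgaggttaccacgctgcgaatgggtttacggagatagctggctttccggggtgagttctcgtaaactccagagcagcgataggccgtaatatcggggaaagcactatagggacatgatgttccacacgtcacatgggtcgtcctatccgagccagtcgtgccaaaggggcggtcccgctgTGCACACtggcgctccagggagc
The Mt2 sequence holds 3 matches, the farthest of which begins 223 and the nearest 50 bases before the start, and the Mt1 sequence holds 1, which begins 23 bases before it. The Prdx4 promoter also holds 1, which begins 58 bases before the start. Of all 32851 promoters of the same length, 21.4% hold at least 1 match and 1.26% hold at least 3. Mt2 also holds 1 match to the antioxidant response element core TGACNNNGC, which does not overlap the other matches, as do Prdx1 and 1 of the 3 Txnrd1 promoters, against 10.2% of all promoters. A match is a run of letters and not a measured site. Bases after the RefSeq start were not searched, and for Mt1 and Mt2 this start differs from the GENCODE one. The match counts therefore hold for these 250 bases only and do not rank the full promoters of the 2 genes. Of the other members, Hmox1 (chr8:75093621-75100589, plus strand), Prdx2 (chr8:84969587-84974834, plus strand) and Nqo1 (chr8:107388225-107403206, minus strand) lie on the same chromosome in GENCODE M21, and Txnrd1 spans chr10:82833951-82897712 on the plus strand.

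Levels differed widely between the members. Set medians of Prdx1, the most abundant cytosolic peroxiredoxin here, ran from 803 to 1250 TPM and those of Txn1 from 756 to 1281 TPM. Mt1 followed with 377 to 765 TPM and Mt2 with 182.7 to 628 TPM, then Prdx2 with 251 to 275 TPM, Prdx4 of the endoplasmic reticulum with 143.3 to 363 TPM and Prdx6, which draws on glutathione, with 82.3 to 153.7 TPM. For every pair of neighbours in this order the ranges of set medians overlapped. Txnrd1, Nqo1 and Hmox1 were lowest, with set medians from 0 to 34.8, from 0 to 43.8 and from 0 to 45.8 TPM, and their ranges lay below that of Prdx6.

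**Figure D1:**
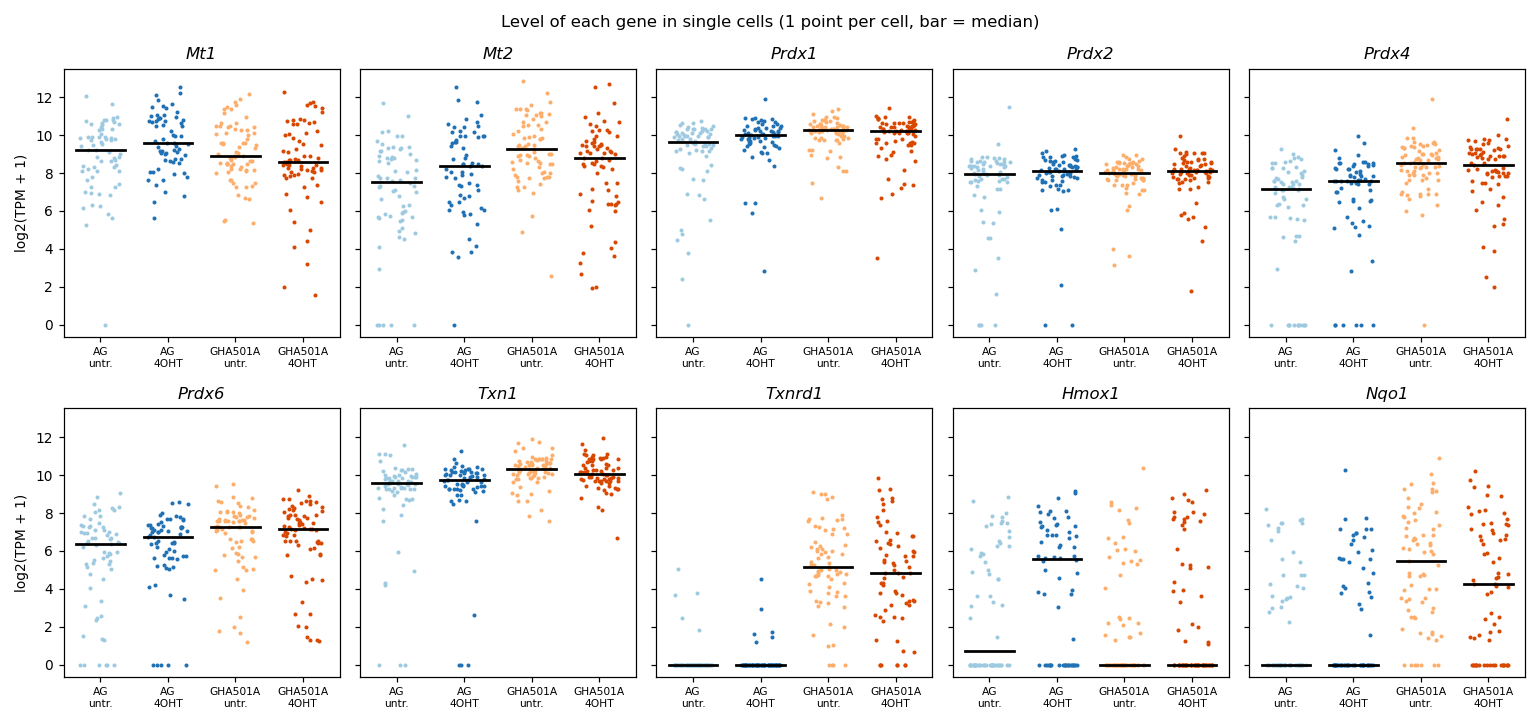
Level of each of the 10 genes in single cells as log2(TPM + 1) (y axis) in the 4 sets (x axis; untr., untreated; 4OHT, treated), with 1 point per cell and a bar at the median. In GHA501A, Prdx1, Prdx2 and Txn1 form narrower bands than Mt1 and Mt2. In AG, Prdx2 and Txn1 have a larger SD than Mt1 over all cells, but not over cells with at least 5000 genes detected. In those untreated and treated AG cells the SD was 1.08 and 0.73 for Prdx2, 0.67 and 0.55 for Txn1 and 1.47 and 1.57 for Mt1. Hmox1 and Nqo1 divide between cells at 0 and cells with a level, and Txnrd1 is at 0 in nearly all AG cells only.

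The peroxidases and thioredoxin were present in nearly all cells, and nearly all of their zeros were in AG cells. Prdx1 ranged from 0 to 1743 TPM around a median of 803 in untreated and from 6.01 to 3808 TPM around 1015 in treated AG cells, and from 103.2 to 2679 TPM around 1250 and from 10.4 to 2777 TPM around 1193 in the GHA501A sets. Txn1 ranged from 0 to 3130 TPM around 756 and from 0 to 2510 TPM around 858 in the AG sets, and from 189.4 to 3856 TPM around 1281 and from 102.3 to 4016 TPM around 1083 in the GHA501A sets. For both genes the ranges of all 4 sets overlapped and the GHA501A medians were the higher ones. Prdx2 had medians of 251, 273, 259 and 275 TPM in the untreated and treated AG and the untreated and treated GHA501A sets, the most even level of the 10 genes. Its transcript shares 12.8% of its 100-base windows with other gene models, Junb and a pseudogene among them. Prdx4 ranged from 0 to 628 TPM and from 0 to 1009.5 TPM in the AG sets and from 0 to 3801 TPM and from 2.91 to 1880.5 TPM in the GHA501A sets, and it was at 0 in 11, 6, 1 and 0 cells of the 4 sets. Prdx6 ranged from 0 to 523 TPM and from 0 to 386 TPM in AG and from 1.28 to 743 TPM and from 1.35 to 586 TPM in GHA501A, with its lowest median, 82.3 TPM, in untreated AG and its highest, 153.7 TPM, in untreated GHA501A cells.

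The metallothioneins were detected (TPM over 1) in nearly every cell but at very different levels. Mt1 ranged from 0 to 4368 TPM around a median of 591 in untreated AG cells and from 48.9 to 5909 TPM around 765 in treated AG cells. In GHA501A it ranged from 39.6 to 4707 TPM around 477 in untreated cells and from 1.999 to 4954 TPM around 377 in treated cells. The sets overlapped almost fully. Mt2 ranged from 0 to 3368 TPM around a median of 182.7 in untreated AG cells, from 0 to 6008 TPM around 332 in treated AG cells, from 5.02 to 7520 TPM around 628 in untreated GHA501A cells and from 2.79 to 6719 TPM around 451 in treated GHA501A cells. The top 10% of cells held between 31.4% and 40.7% of a set's Mt1 TPM and between 38.5% and 45.7% of its Mt2 TPM, against between 18.8% and 21.9% for Prdx1. The highest Mt1 value of the treated GHA501A set came from a cell whose immune markers summed to 54196 TPM, chosen after its values were seen, in which Txnrd1 and Nqo1 were listed at 0. Of 6 immune markers listed, 3 were in the table, and Fcer1g and Cd52 were not detected in any cell of that set. The sum thus came nearly all from the remaining marker. By the split at 100 TPM the cell counted as Col1a1-high and entered the means of that class, and what kind of cell it was remains unknown.

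Over all cells of a set, Mt1 exceeded Mt2 in a larger share of AG than of GHA501A cells. Mt1 was the higher of them in 58 of 66 untreated and 59 of 64 treated AG cells, with a median difference in log2(TPM + 1) of 1.72 and 1.32. In GHA501A, Mt1 was the higher in 35 of 71 untreated and 42 of 69 treated cells, with a median difference of -0.017 and 0.36. The Col1a1-high cells alone gave -0.052 and 0.26, and the few Krt14-high cells of GHA501A, 8 untreated and 10 treated, gave 0.39 and 0.84, between the AG and the Col1a1-high values. Among untreated Krt14-high cells the share with Mt1 the higher was 87.5% in both series, 56 of 64 cells in AG and 7 of 8 in GHA501A, and among treated ones it was 55 of 59 and 7 of 10. The difference in this ratio between the series was not tested. About 27.4% of the 100-base windows of the longest Mt2 transcript also occur in the transcript of a neighbouring model, Gm45774, and reads there may not be counted for Mt2, whereas 0% of the Mt1 windows occur elsewhere.

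Mt1 and Mt2 varied together from cell to cell. The Pearson r of their log2(TPM + 1) was 0.51 across untreated and 0.74 across treated AG cells, and 0.64 and 0.80 in GHA501A, with a mean of 0.67. Among 7054 genes detected in at least 20% of the cells of every set, Mt2 was the gene most like Mt1 and Mt1 the gene most like Mt2. Cells of a set share their library preparation and each cell its depth and scaling, so these values are descriptions. The mean r was 0.63 with the number of genes detected held constant and 0.75 among cells with at least 5000 genes. Next most like Mt1 were Selenbp1 (mean r 0.50) and Selenbp2 (0.48), near-identical selenium-binding protein genes. Reads that match both may have been discarded as multiply mapped. Next most like Mt2 were Bnip3l (0.44), a receptor for the removal of mitochondria, and Ndrg1 (0.37).

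**Figure D2:**
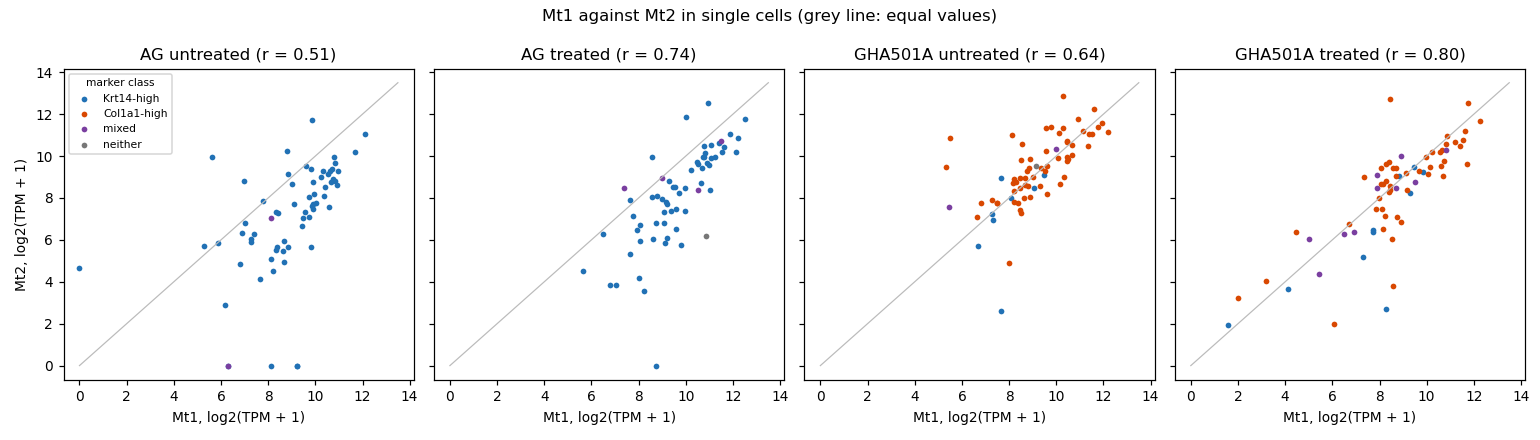
Mt1 (x axis) against Mt2 (y axis), both as log2(TPM + 1), in each of the 4 sets, 1 point per cell coloured by marker class, with Pearson r in the title and a grey line where both are equal. In AG most points lie below the line, while in GHA501A they lie on both sides of it, and r is between 0.51 and 0.80.

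None of the 10 genes passed the test for a change in level with 4OHT. Called was a Benjamini-Hochberg adjusted p under 0.05 by limma over all genes tested with a log2 fold change over 0.5 in size. Of the members 0 of 10 were called, beside 0 of 12355 genes (0%), while 459 genes and 0 members had an unadjusted p under 0.05. Members' log2 changes in mean TPM (with a pseudocount of 1) ran from -0.10 for Txnrd1 to 0.61 for Hmox1, with a median of 0.11 against -0.00089 over all genes. Txnrd1 was listed at 0 in most AG cells. In simulated data of this design the test found 13 of 200 genes to which a log2 change of 3 was added at a residual SD of 1, and 200 of 200 at a residual SD of 0.1. Every simulated gene had the same SD, and no smaller change was simulated. These counts therefore do not give the power for changes of the members' size. The standard errors of the members were between 0.33 and 0.47. In a design of 2 sets against 2 they equal the residual SD after limma has drawn it towards a value shared by all genes. Hmox1 had the largest change, 0.61 ± 0.34 (SE, adjusted p = 0.998 by limma), and was the only member whose mean moved the same way in both series, by 0.82 in AG and 0.41 in GHA501A. Its mean was 52.4 TPM in untreated and 93.01 TPM in treated AG cells, and 53.7 and 71.7 TPM in GHA501A. The GHA501A median of Hmox1 was 0 TPM in both sets. Within GHA501A the mean of Hmox1 rose from 36.8 to 88.5 TPM in Col1a1-high cells. In the 8 untreated and 10 treated Krt14-high cells it fell from 191.8 to 0.999 TPM. Mt2 moved by 0.95 in AG and by -0.52 in GHA501A, and Nqo1 by 0.65 and -0.48. Of the redox and metal pathway list, 57 genes of which 53 were tested, 0 were called and 2 had an unadjusted p under 0.05. The list's median change was 0.086.

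Hmox1 and Nqo1 were present in some cells of each set and not detected in the rest. Hmox1 was over 1 TPM in 33 of 66 untreated AG cells (50%, 95% Wilson interval 38.3 to 61.7%) and 43 of 64 treated AG cells (67.2%, 55 to 77.4%). In GHA501A it was over 1 TPM in 31 of 71 untreated cells (43.7%, 32.7 to 55.2%) and 32 of 69 treated cells (46.4%, 35.1 to 58%). These intervals cover the counting of cells only. The highest Hmox1 values were 463 and 562 TPM in AG and 1330 and 601 TPM in GHA501A. In untreated GHA501A cells the top 10% of cells held 82.4% of the Hmox1 TPM, more than for any other member and set except Txnrd1 in AG, and 1 Krt14-high cell held the value of 1330 TPM. Nqo1 reached 300.02 and 1257 TPM in the AG sets and 1887 and 1176 TPM in the GHA501A sets. It was over 1 TPM in 28 of 66 untreated AG cells (42.4%, 31.2 to 54.4%) and 30 of 64 treated AG cells (46.9%, 35.2 to 58.9%). In GHA501A it was over 1 TPM in 64 of 71 untreated cells (90.1%, 81 to 95.1%) and 50 of 69 treated cells (72.5%, 61 to 81.6%). The lowest values listed above 0 were smaller in GHA501A, with a median 5th percentile of 0.385 and 0.343 TPM against 0.976 and 0.656 TPM in AG. Over 10 TPM, Nqo1 was found in 34.8% and 42.2% of AG cells and in 67.6% and 57.97% of GHA501A cells. The order of the series was the same at this higher threshold.

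Between the series, 2 of 10 members were called, Nqo1 and Txnrd1, both higher in GHA501A, where 18.2% of all genes tested were called higher and 29% were called in either direction. The share of members is close to this background. Markers of fibroblasts moved with the series, with a median summed level of 720 and 771 TPM in the untreated and treated AG sets and of 3838 and 3552 TPM in the GHA501A sets, and their part in these differences was not tested over all cells. Mean Nqo1 was 32.1 and 50.9 TPM in untreated and treated AG cells and 162.96 and 117 TPM in GHA501A, a log2 difference of 1.75 ± 0.42 (SE, adjusted p = 0.041 by limma). Nqo1 was not called with a pseudocount of 0.1 (adjusted p = 0.079) or without a filter on low values (adjusted p = 0.069), and over the alternatives tested its adjusted p ran from 0.011 to 0.079. Prdx4 was 2.30-fold higher in GHA501A without passing the test, with mean TPM of 162.8 and 213 in AG and 450 and 409 in GHA501A (log2 difference 1.20 ± 0.35 SE, adjusted p = 0.066 by limma). The Mt1, Prdx1, Prdx2, Prdx6, Txn1 and Hmox1 differences ran from -0.24 to 0.64, and the Mt2 difference was 0.84 ± 0.47 (SE, adjusted p = 0.25). Averaging log2(TPM + 1) over cells in place of taking the log2 of the mean called 5 members, Prdx4, Txn1, Txnrd1, Hmox1 and Nqo1, among 5539 genes, of which 2650 were higher and 2889 lower in GHA501A, against 2247 higher and 1333 lower with the mean TPM. With that average Hmox1 was lower and the other 4 were higher in GHA501A.

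Txnrd1 was listed at 0 in 61 of 66 untreated and 58 of 64 treated AG cells, and its highest AG values were 32.5 and 21.99 TPM. In GHA501A it was over 1 TPM in 66 of 71 untreated cells (92.96%, 84.6 to 96.95%), with a median of 34.8 and a highest value of 549 TPM, and in 60 of 69 treated cells (86.96%, 77.03 to 92.98%), with a median of 27.5 and a highest value of 937 TPM. Most GHA501A cells thus lay above nearly all AG cells. Txnrd1 passed the test between the series, but no fold is given, because genes that every cell uses were at 0 in the same AG cells. Rps24, a ribosomal protein gene, had a median of 0 TPM in both AG sets and of 808 and 643 TPM in GHA501A, and Eif4a1, Rpl31 and Hspa5 behaved likewise (these 4 were chosen after their values were seen). In all, 170 genes with a mean log2(TPM + 1) over 4 in both GHA501A sets were detected in fewer than 10% of AG cells, against 23 genes the other way round. The 170 genes held 2.22% and 2.31% of the TPM of GHA501A cells and 0.0027% and 0.0029% of that of AG cells. In GENCODE M21 Txnrd1 overlaps another gene on its strand, Eid3, as 25.6% of those of the 170 genes with a position overlap some gene, against 22.6% of all genes tested. Whether the values of Txnrd1 in AG reflect its transcripts was not tested. The difference was as large within Krt14-high cells, with a median of 0 TPM in both AG sets and of 59.3 and 15.1 TPM in the 8 untreated and 10 treated GHA501A cells.

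Other genes of the pathway list also differed between the series. Of 53 tested, 17 were called higher and 3 lower in GHA501A, beside 18.2% higher and 10.8% lower of all genes (a median log2 difference of 0.47, against 0.014 over all genes). The largest were Idh1, an NADPH-producing dehydrogenase, with a mean of 0.80 and 1.10 TPM in AG and 404 and 305 TPM in GHA501A, the metallothionein Mt4, listed at 0 in 66 of 66 untreated and 62 of 64 treated AG cells, Gpx4, which reduces lipid peroxides, with a mean of 6.77 and 8.18 TPM in AG and 407 and 503 TPM in GHA501A, and Hmox2. Lower in GHA501A were Osgin1, a growth inhibitor induced by oxidative stress, with a mean of 58.9 and 94.3 TPM in AG and 5.78 and 10.7 TPM in GHA501A, the ferritin light chain Ftl1, and the stress gene Sesn2. Ftl1 has near-identical copies, and its value is uncertain. The levels of Idh1 and Gpx4 in AG were low in the same sets that listed Txnrd1 at 0, and the cause was not tested.

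Within GHA501A, the metallothioneins, Prdx4 and Nqo1 had lower means in Krt14-high than in Col1a1-high cells, but 0 of 10 members were called (2.63% of all genes tested). An unadjusted p under 0.05 by limma was found for 3 of the 10 members, beside 2343 of 12355 genes. Median Mt1 was 200 TPM in 8 untreated and 261 TPM in 10 treated Krt14-high cells, and 576 and 411 TPM in 60 and 49 Col1a1-high cells. In the fit its mean was 3.07-fold lower in Krt14-high cells (log2 difference -1.62 ± 0.36 SE, adjusted p = 0.12 by limma). Median Mt2 was 202 and 84.5 TPM in Krt14-high and 704 and 569 TPM in Col1a1-high cells (-2.12 ± 0.46 SE, adjusted p = 0.12 by limma). Median Prdx4 was 118.5 and 119.4 TPM in Krt14-high and 370 and 481 TPM in Col1a1-high cells (-1.60 ± 0.41 SE, adjusted p = 0.15 by limma). For Nqo1 only the mean was lower in Krt14-high cells (-1.26 ± 0.47 SE, adjusted p = 0.27 by limma). Its median was 41.3 and 21.9 TPM in Krt14-high and 40.7 and 18.4 TPM in Col1a1-high cells. Its highest values were 321 and 206 TPM in Krt14-high and 1887 and 1176 TPM in Col1a1-high cells. The members' median difference was -0.81 against -0.17 over all genes. The Prdx1, Prdx2, Prdx6, Txn1 and Txnrd1 differences were between -0.36 and 0.28. Hmox1 rested on single cells, with means of 191.8 and 0.999 TPM in untreated and treated Krt14-high cells. Of the pathway list, Osgin1 was called higher in Krt14-high cells (log2 difference 3.40, adjusted p = 0.032 by limma), and the glutathione transferase Gstm1 (-4.13, adjusted p = 0.026) and Mt4, nearly at 0 in Krt14-high cells, lower. Leaving out 1 of the 6 class means gave between 0 calls (without either AG mean or either Col1a1-high mean) and 1283 calls (without the untreated GHA501A Krt14-high mean, where Hmox1 was called) among all genes, against 325 with all of them, and 672 calls without the treated GHA501A Krt14-high mean.

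**Figure D3:**
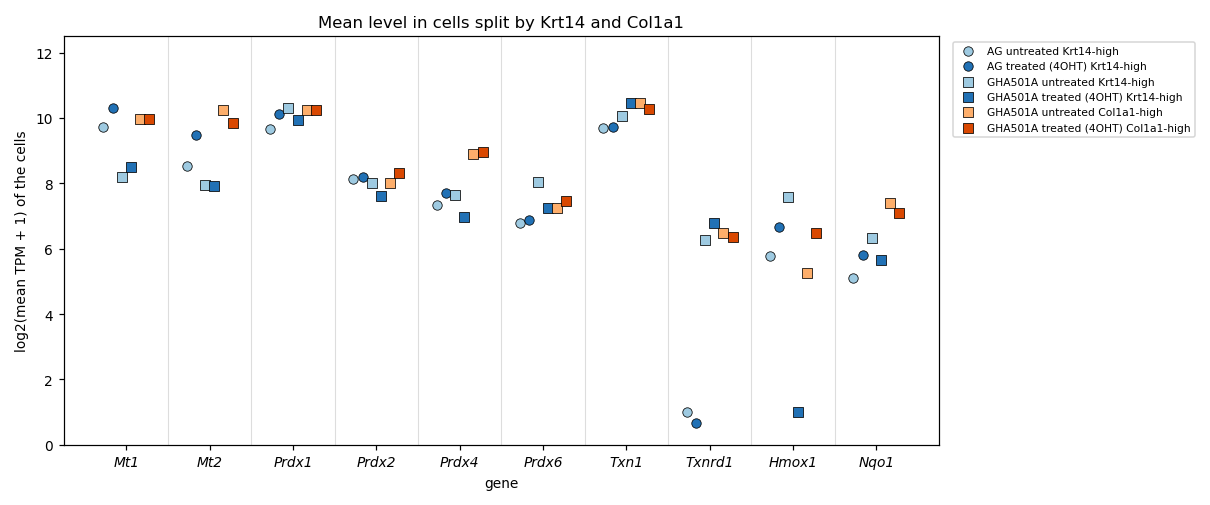
Mean level of the 10 genes (x axis) as log2(mean TPM + 1) (y axis) in Krt14-high cells of AG (circles) and in Krt14-high and Col1a1-high cells of GHA501A (squares), untreated in the paler and treated in the darker shade. Mt1, Mt2 and Prdx4 of GHA501A are higher in Col1a1-high than in Krt14-high cells at both treatments, and Txnrd1 has its lowest values in AG.

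Among Krt14-high cells, the GHA501A cells had less Mt1 than the AG cells. Mean Mt1 was 837 and 1262 TPM in 64 untreated and 59 treated AG cells and 293 and 362 TPM in 8 and 10 GHA501A cells, 3.15-fold lower (log2 difference -1.65 ± 0.36 SE, adjusted p = 0.046 by limma), and the single cells of the series overlapped. Mt1 and Txnrd1 were the 2 of 10 members called, against 18.3% of all genes, so that the share is close to the background. The Mt1 call was lost with a pseudocount of 0.1, with classes split at 30 TPM, with the mean of log2(TPM + 1), without the genes near 0 in 1 series and without any 1 of the 6 class means, where the difference stayed between -1.88 and -1.43. Mean Mt2 was 370 and 707 TPM in AG and 247 and 238 TPM in GHA501A (-1.07 ± 0.46 SE, adjusted p = 0.19 by limma). Nqo1 and Prdx4, whose means over all cells were higher in GHA501A, differed by 0.54 ± 0.47 (SE) and -0.20 ± 0.41 (SE) among Krt14-high cells. Median Nqo1 in these cells was 0 TPM in both AG sets and 41.3 and 21.9 TPM in untreated and treated GHA501A. It was over 1 TPM in 28 of 64 and 29 of 59 AG cells and in 8 of 8 and 8 of 10 GHA501A cells. With other settings over all 6 class means the Nqo1 difference ran from 0.47 to 1.86, with adjusted p of at least 0.057 by limma. Of 53 pathway genes tested, 9 were called higher in GHA501A (the largest being Idh1, Hmox2, Gpx4 and Me1), beside 1291 of all 12355 genes. Called lower were 2 (Sesn2 and Ftl1), beside 976 of all genes. Over all AG cells the set medians of Idh1, Hmox2 and Me1 were between 0 and 1.32 TPM, and the cause was not tested.

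Cell-to-cell spread, as the SD of log2(TPM + 1) within a set, was widest for Hmox1 in every set and overlapped among most other members. The SD was between 3.02 and 3.40 for Hmox1 and between 2.87 and 3.34 for Nqo1, which were at 0 in many cells, and between 1.51 and 2.18 for Mt1 and 1.74 and 2.70 for Mt2, which were not. It ran from 1.06 to 2.40 for Prdx2, from 1.47 to 2.95 for Prdx4 and from 1.82 to 2.51 for Prdx6 over the 4 sets, ranges that overlap those of the metallothioneins and, for Prdx4, that of Nqo1. For the 290 to 385 genes of a set with a mean level like that of Mt1, the median SD was 1.78 and 1.66 in the AG sets and 1.22 and 1.34 in the GHA501A sets. Txn1 had an SD of 0.83 and 0.84 in GHA501A and of 2.38 and 2.32 in AG, and Prdx1 of 0.84 and 1.29 against 2.11 and 1.34.

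Between the series the SD of 4 of 9 members tested was called lower in GHA501A, against 6.52% of all 7054 genes tested lower and 11.7% called in either direction. These were Txn1 (log2 ratio of SDs -1.49), Prdx2 (-0.84), Prdx4 (-0.80) and Prdx1 (-0.69), each ± 0.19 (SE), with adjusted p of 2.5e-12, 0.00028, 0.00065 and 0.0049 by limma. In this fit limma gave every gene the same pooled error. Among cells with at least 5000 genes none of the 4 was called, and the ratio turned to 0.43 for Txn1, 0.36 for Prdx2 and 0.39 for Prdx1, while Prdx4 kept a value of -0.35 (adjusted p = 0.38 by limma). Over all genes 401 were then called higher and 41 lower in GHA501A, against 365 and 460 over all cells. This restriction was chosen after seeing the data, and most of the cells it left out were AG cells. In the 11 untreated AG cells with fewer than 5000 genes, Txn1 had a median of 29.7 TPM and ranged from 0 to 2252 TPM, whereas in the other 55 cells it ranged from 240 to 3130 TPM around 811 and its SD was 0.67. The coefficient of variation of TPM, which weighs zeros less, gave 0 called members. With treatment the SD of 0 of 9 members was called changed, beside 4 of 7054 genes (0.0567%), and 0 members had an unadjusted p under 0.05. Of 45 genes of the pathway list tested for spread by series over all cells, 4 were called higher, among them Hmox2 and Idh1, and 8 lower, among them the ferritin heavy chain Fth1 (-1.26), the glutathione transferase Gstp1 (-1.21) and the mitochondrial peroxiredoxin Prdx5 (-0.68). For Txnrd1 the spread was not tested, since it was detected in under 20% of AG cells.

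**Figure D4:**
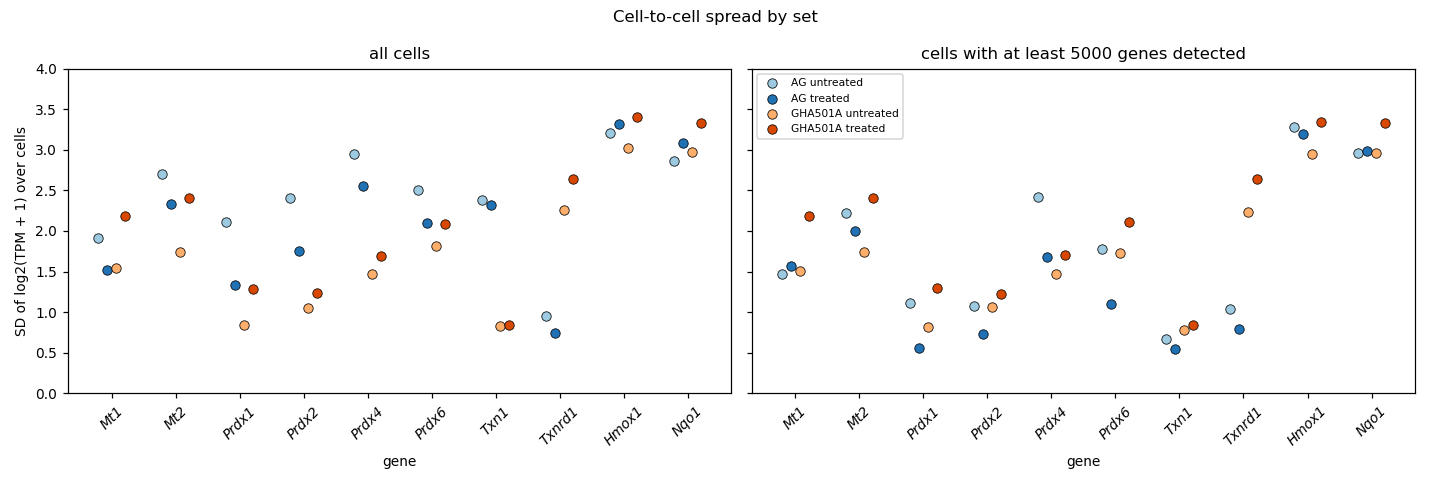
SD of log2(TPM + 1) over the cells of each of the 4 sets (y axis) for the 10 genes (x axis), over all cells on the left and over cells with at least 5000 genes detected on the right. On the left Txn1, Prdx1, Prdx2 and Prdx4 have their largest SDs in AG, and on the right the AG values of Txn1 lie below those of GHA501A.

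The cytosolic peroxiredoxins also varied together, though each had a higher mean r with genes outside the family than with the others. Prdx1 and Prdx6 had r of 0.68 and 0.57 in untreated and treated AG cells and of 0.62 and 0.42 in GHA501A cells. Prdx2 and Prdx6 had 0.57, 0.66, 0.49 and 0.35 in the same order, and Prdx1 and Prdx2 had 0.61, 0.67, 0.43 and 0.20. The mean of these 3 pairs was 0.52, and it was 0.41 with the number of genes detected held constant and 0.30 as Spearman's rho. Among cells with at least 5000 genes, the 3 pairs in this order had a mean r of 0.42, 0.44 and 0.35. In the treated AG cells of that kind r was 0.15, 0.29 and 0.10. Txn1, the electron donor of Prdx1 and Prdx2, had a mean r of 0.46 with Prdx6, 0.41 with Prdx1 and 0.21 with Prdx2, the last with -0.11 in treated GHA501A cells. Among cells with at least 5000 genes these means were 0.18, 0.26 and -0.0061, and with the number of genes detected held constant 0.27, 0.24 and 0.051. In AG these genes followed the number of genes detected in a cell, with r from 0.79 and 0.78 for Prdx6 to 0.57 and 0.52 for Prdx2, and in GHA501A they did not, with r between -0.12 and 0.11 for Prdx1, Prdx2, Prdx6 and Txn1. Of the 45 pairs of members, 20 had r over 0 in every set. The genes most like Prdx1 were Ppia (mean r 0.65), a cyclophilin, Mrps33 and Psmb6. Those most like Prdx6 were Ndufa8 (0.66), a subunit of respiratory complex I, Ppia and Uqcrc1. Eef1b2 (0.59) was most like Prdx2, Ostc (0.47) most like Prdx4 and Atp5k (0.55) most like Txn1. The highest mean r was 0.34 for Nqo1 (with Gmnn), 0.33 for Hmox1 (with Pafah1b3) and 0.25 for Txnrd1 (with Mrps26).

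**Figure D5:**
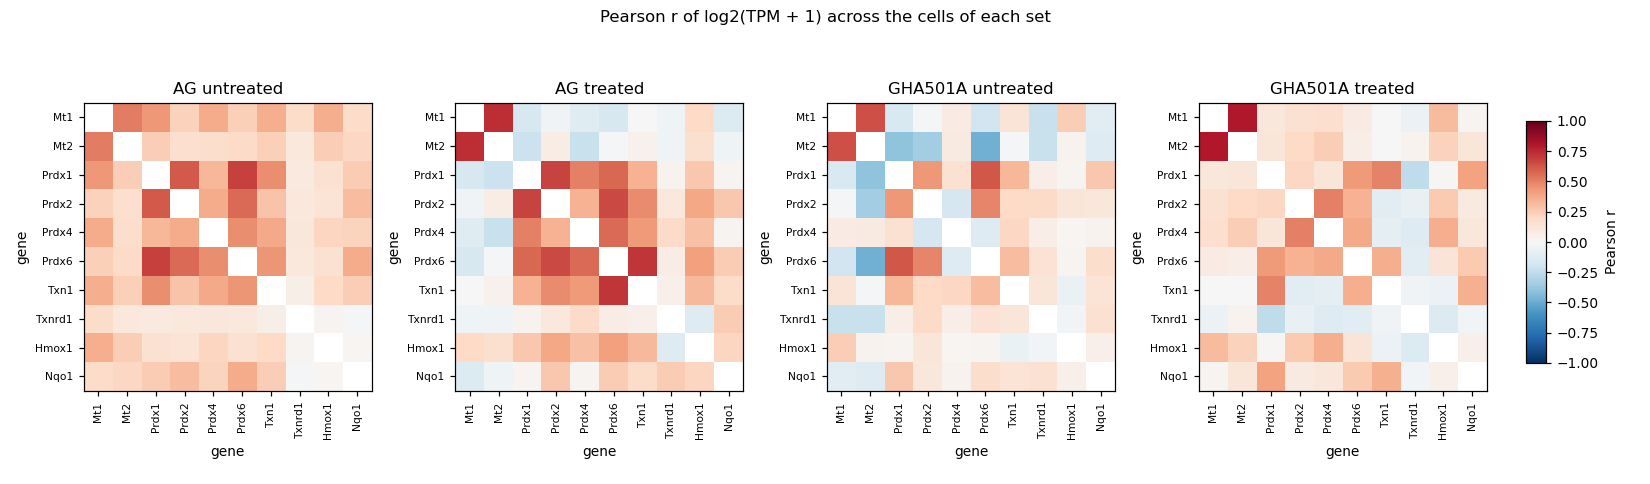
Pearson r of log2(TPM + 1) between the 10 genes (both axes) across the cells of each of the 4 sets, from -1 (blue) to 1 (red). The squares between Mt1 and Mt2 (0.51 to 0.80) and among Prdx1, Prdx2 and Prdx6 (0.20 to 0.68) are red in every set, while the squares between Mt2 and these peroxiredoxins are blue in untreated GHA501A cells.

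The metallothioneins did not vary with the redox enzymes in a steady direction. Over the 14 pairs of Mt1 or Mt2 with another member except Txnrd1, the mean r was 0.065. In untreated GHA501A cells Mt2 had r of -0.48 with Prdx6, -0.41 with Prdx1 and -0.35 with Prdx2, and among the 60 Col1a1-high cells of that set these were -0.50, -0.40 and -0.36. In treated GHA501A cells they were 0.069, 0.12 and 0.20, in untreated AG cells 0.19, 0.24 and 0.17, and in treated AG cells -0.017, -0.22 and 0.077. Mt1 and Hmox1 were the pair of a metallothionein and an enzyme with the highest mean r, 0.28, and it was over 0 in all 4 sets. In untreated GHA501A cells Mt1 and Mt2 were lower in cells with more genes detected (r of -0.49 and -0.44), and with that number held constant the Mt2 values of that set were -0.48, -0.49 and -0.45. Txnrd1, at 0 in most AG cells, had a median mean r of 0.047 over its 9 pairs.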

How the data were processed

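Single cells were captured on a microfluidic chip, and wells with doublets or non-viable cells were excluded by imaging. Reads were trimmed with cutadapt and aligned with TopHat to GRCm38, multiply-mapped reads were discarded, and genes were counted with featureCounts (versions not given in the sources used here). The authors deposited TPM values, which sum to 1000000 in every cell, so the read depth behind a value is unknown and no count test was made. A listed 0 may be a failed estimate. Of 294 columns, 16 could not be tied to a label and were not used, and 8 AG cells whose library name and treatment label disagree entered only an alternative.

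The 10 members and all gene lists were chosen with earlier results of these data known. The named genes were the members, the pathway genes called with the largest changes (up to 4 in each direction), the 3 genes with the highest mean within-set r to each member, and markers. For each set, or marker class of at least 5 cells in a set, log2 of the mean TPM + 1 was fitted with limma 3.58.1 (R 4.3.3) for 12355 genes over 1 TPM in more than 5 cells, with treatment and series as terms. Spread was the log2 SD of log2(TPM + 1), fitted likewise for 7054 genes. Medians, correlations and Wilson intervals were computed with numpy 2.4.6, pandas 2.3.3 and scipy 1.17.1 in Python 3.11.15, and plots drawn with matplotlib 3.10.9. The fit was tested on simulated data. Alternatives were another pseudocount, other filters, the mean of log2(TPM + 1), other class thresholds, no block, each set left out, and, chosen after seeing the data, only cells with at least 5000 genes, 1 class per series, and leaving out genes near 0 in 1 series.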

Additional observations from a re-analysis of the deposited data

Results flagged for a closer look

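The mean level of 9 of the 10 genes moved in opposite directions with 4OHT in the 2 series, as did 50.3% of all 12355 genes tested. On the log2 scale of mean TPM + 1, treated minus untreated, Mt1 moved by 0.64 in AG and by -0.14 in GHA501A, and Mt2 by 0.95 and -0.52. Prdx1 moved by 0.44 and -0.12, Prdx2 by -0.027 and 0.17, Prdx4 by 0.38 and -0.14, and Prdx6 by 0.084 and -0.037. Txn1 moved by 0.095 and -0.14, Txnrd1 by -0.34 and 0.13, and Nqo1 by 0.65 and -0.48. The AG value of Txnrd1 rests on few cells, since it was over 1 TPM in 5 of 66 untreated and 6 of 64 treated cells. Each series has 1 set per treatment, so the difference between the series was not tested for any of these genes. The SD of the change over all genes was 0.72 in AG and 0.76 in GHA501A, and the AG change of Mt2 was the only one of these values beyond it in size.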

How the results depend on the processing

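Depth limits the firmness of zeros, since TPM values carry none, and 1 set per series and treatment limits every test. Of members called in the report, Nqo1 (series) was lost with a pseudocount of 0.1 and without the filter on low values, each leaving 1 member. The mean of log2(TPM + 1) called 5 members and 44.8% of genes. The series fit without genes near 0 left 1 member, Nqo1, since Txnrd1 was itself among the genes left out and could not be called. Without the block (no replicate block) the series fit called 31.2% of genes (29% with it), the treatment fit 0, and Krt14-high against Col1a1-high cells 5.09% (2.63% with it). That comparison gave 4.14% with a pseudocount of 0.1 and 0.835% without the filter. Among Krt14-high cells by series 1 member was called with a pseudocount of 0.1 or a threshold of 30 TPM. Without genes near 0 it was 0, where again Txnrd1 had been left out and could not be called. The spread by treatment gave 0 genes with the coefficient of variation, a pseudocount of 0.1, no block or only cells with at least 5000 genes. The spread by series called 2.42% of genes with the coefficient of variation and 6.16% with only cells of at least 5000 genes, against 11.7%, and 0 members in both.

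The direction of some log2 values that did not pass a test turned. For treatment these were Txn1 0.051 and Nqo1 -0.29 with the mean of log2(TPM + 1), Prdx6 -0.063 with the disagreeing cells, and Prdx6 -0.048 and Nqo1 -0.30 with cells of at least 5000 genes. Between the series Prdx2 was 0.40 with the mean of log2(TPM + 1). Between the classes, that setting gave 0.082 for Prdx1 and -0.36 for Txnrd1, and a threshold of 300 TPM gave -0.10 for Txnrd1 and 0.0043 for Hmox1. Among Krt14-high cells by series a threshold of 300 TPM gave 0.021 for Prdx4. For the spread by series the coefficient of variation gave 0.016 for Prdx4, 0.66 for Hmox1 and -0.46 for Nqo1, a pseudocount of 0.1 gave -0.13 for Nqo1, and cells of at least 5000 genes gave 0.39 for Prdx1, 0.36 for Prdx2, 0.44 for Prdx6 and 0.43 for Txn1. In each case the cause was not tested.

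The mean r of the peroxiredoxin pairs was 0.30 as Spearman's rho and 0.37 in Krt14-high cells. That of metallothioneins with other members was -0.0090 as Spearman's rho, -0.031 in Col1a1-high cells and from -0.00064 to 0.12 with 1 set left out. Pairs positive in every set numbered 11 given the genes detected, 10 in Krt14-high cells and 13 in cells of at least 5000 genes.

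With 1 set left out, the log2 change with treatment ran from -0.14 to 0.64 for Mt1, -0.52 to 0.95 for Mt2, -0.12 to 0.44 for Prdx1, -0.027 to 0.17 for Prdx2, -0.14 to 0.38 for Prdx4, -0.037 to 0.084 for Prdx6, -0.14 to 0.095 for Txn1, -0.34 to 0.13 for Txnrd1 and -0.48 to 0.65 for Nqo1, with no test. Between the series it ran from -0.63 to 0.15 for Mt1, -0.13 to 0.068 for Prdx2 and -0.37 to 0.033 for Hmox1, and for spread from -0.31 to 0.53 for Mt1, -0.63 to 0.046 for Mt2 and -0.084 to 0.035 for Hmox1. With 1 class mean left out, Krt14-high against Col1a1-high cells called 0% to 10.4% of genes and 0 to 1 members, and log2 values from -0.40 to 0.20 for Prdx1, -0.21 to 0.77 for Prdx6, -0.35 to 0.14 for Txn1, -0.27 to 0.47 for Txnrd1 and -5.39 to 2.26 for Hmox1. Krt14-high cells by series called 0% to 27.2% of genes (0% without either AG mean, 10.2% without either Col1a1-high mean) and 0 to 2 members, and from -0.079 to 0.58 for Prdx1, -0.64 to 0.24 for Prdx4, -5.75 to 1.90 for Hmox1 and -0.062 to 1.15 for Nqo1.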
